A study of Rattus norvegicus with 12 samples.

Results

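The sinusoidal and vascular endothelium of liver is described here through 10 listed marker genes: Oit3, Clec4g, Flt4, Wnt2, Kdr, Stab1, Stab2, Pecam1, Tek and Lyve1. A gene was taken where the platform annotation gave a probe set exactly 1 gene symbol and that symbol was in the list. By this rule 5 of 10 listed genes were measured, Oit3, Clec4g, Flt4, Wnt2 and Tek, each by 1 probe set, out of 13215 genes with such a probe set. The other 5, the VEGF receptor Kdr, the scavenger receptors Stab1 and Stab2, the junction protein Pecam1 and the hyaluronan receptor Lyve1, were not analysed here.

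The RNA came from livers of Sprague Dawley rats on 3 diets, with 4 rats per diet and 1 whole-transcript array per sample. Naproxen, an anti-inflammatory drug that blocks the cyclooxygenase enzymes, was given at 400 mg/kg of diet for 7 days. NO-naproxen, a naproxen derivative that releases nitric oxide, was given at 550 mg/kg of diet for the same 7 days, and controls ate the diet without drug for 7 days. All rats were housed singly with free food and water under a light and dark cycle, and no age is stated for them in the labels. The labels count each array as a biological replicate, and state no sex, pooling or litter. The tissue is whole liver, so fewer endothelial cells and less RNA per endothelial cell cannot be told apart in any value below.

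Liver sinusoids are lined by a fenestrated endothelium that lets plasma reach the hepatocytes and clears waste from the blood with scavenger receptors and lectins. Endothelium in general is maintained by the VEGF receptors, which bind vascular endothelial growth factors, and by the TIE receptors, which bind angiopoietins. Endothelium around the central vein also secretes Wnt ligands, which sustain the pericentral programme of neighbouring hepatocytes. Nitric oxide is itself made by endothelium, and prostaglandins act on vessels.

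The sequences just upstream of the annotated start are shown because they divide the measured genes into a pair with CpG-poor and a pair with CpG-rich upstream regions. They are the 250 bases before the start on the gene's strand, 5′ to 3′, from RefSeq's annotation of GRCr8, which held an entry for 4 of the 5 genes and none used here for Tek. The arrays were annotated on another build, so no array position is given. Capitals mark AGGAAG, a form of the site of ETS factors, or ACAAAG, a form of the site of SOX factors, on either strand (CTTCCT and CTTTGT are the reverse complements). Both families of factors act in endothelium.
Oit3, chr20:27953684-27953933, minus strand: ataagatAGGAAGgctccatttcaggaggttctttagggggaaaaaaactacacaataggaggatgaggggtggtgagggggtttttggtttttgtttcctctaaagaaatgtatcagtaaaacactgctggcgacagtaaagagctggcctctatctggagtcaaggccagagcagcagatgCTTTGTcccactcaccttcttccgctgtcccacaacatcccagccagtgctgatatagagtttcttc
Clec4g, chr12:6582914-6583163, minus strand: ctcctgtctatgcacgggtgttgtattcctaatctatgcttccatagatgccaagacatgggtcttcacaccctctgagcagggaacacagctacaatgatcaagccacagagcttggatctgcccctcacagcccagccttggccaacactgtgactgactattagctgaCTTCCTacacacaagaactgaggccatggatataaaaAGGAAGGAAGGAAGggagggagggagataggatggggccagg
Flt4, chr10:34414584-34414833, plus strand: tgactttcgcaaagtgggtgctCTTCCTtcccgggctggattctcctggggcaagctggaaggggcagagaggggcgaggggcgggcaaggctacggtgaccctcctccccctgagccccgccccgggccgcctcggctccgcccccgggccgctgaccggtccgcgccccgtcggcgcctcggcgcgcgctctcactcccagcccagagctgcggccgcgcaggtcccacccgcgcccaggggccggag
Wnt2, chr4:47340285-47340534, minus strand: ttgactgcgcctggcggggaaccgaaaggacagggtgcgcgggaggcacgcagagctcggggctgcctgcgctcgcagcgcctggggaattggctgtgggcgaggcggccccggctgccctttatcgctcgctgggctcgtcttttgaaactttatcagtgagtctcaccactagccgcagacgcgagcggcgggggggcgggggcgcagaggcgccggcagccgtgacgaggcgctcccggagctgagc

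Oit3 and Clec4g, the genes most tied to the sinusoid, had 2 and 1 CpG dinucleotides in these 250 bases and a GC content of 46.8% and 51.2%. Flt4 and Wnt2 had 28 and 29 CpG dinucleotides and a GC content of 76.0% and 70.4%. Over all 33469 upstream regions of that length the medians were 5 CpG dinucleotides and 51.2% GC. AGGAAG was found 1 time upstream of Oit3, 4 times upstream of Clec4g, where 3 matches overlap in a short repeat, 1 time upstream of Flt4 and 0 times upstream of Wnt2. It was present in 29.5% of all upstream regions. ACAAAG was found 1 time, upstream of Oit3, and was present in 16.3% of all regions. AGATAA, a form of the site of GATA factors such as the sinusoidal regulator Gata4, was in none of the 4 regions and in 10.3% of all (its reverse complement is TTATCT). Each site was searched in 1 form only, on either strand. Other forms of these sites were neither counted nor marked, so their absence is not shown. These matches describe letters in a short window and were not tied to any measured value.

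Array signals are deposited as linear intensities, and tests were run on log2(intensity + 16). The 12 arrays had medians of 89.8 to 118.1. The interquartile range over the probe sets of an array, called the array spread here, was 2.10 ± 0.19 log2 units on the control diet, against 2.34 ± 0.16 for naproxen and 2.36 ± 0.23 for NO-naproxen (SD, n = 4 each). Control replicates 4 and 3 had the narrowest spread, at 1.945 and 1.996 log2 units. Because this spread was lower in the controls than in either drug group on average, the 5 genes and the gene lists are also given below with the spread as a covariate and without these 2 arrays. As a bound for background signal, 970 probe sets for odorant and pheromone receptors were used, and the 95th percentile of their means was 6.44 on the log2 scale. All 5 endothelial genes had a mean above it, with Wnt2 at 6.61 the closest to it, Clec4g at 7.52, Tek at 8.08, Flt4 at 8.54 and Oit3 at 9.53. Values of different probe sets are not comparable as levels of different genes. Of 14 hepatocyte markers listed as a check of the tissue, such as albumin, 12 were measured and all 12 lay above the background bound.

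Naproxen against control is one of the comparisons that the series design names. On the naproxen diet the mean signals of the lectin Clec4g, the sinusoidal gene Oit3 and the VEGF receptor Flt4 were 1.46, 1.34 and 1.32 times those of controls. The angiopoietin receptor Tek differed by 1.09 times, and the Wnt ligand Wnt2 was the exception, at 0.779 times control. None of these 5 differences passed limma's test after Benjamini-Hochberg adjustment over all 19418 probe sets, and 0 probe sets in all did (0%), with a smallest adjusted p of 0.245, while 2458 had an unadjusted p under 0.05.

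Oit3 encodes a zona pellucida domain protein of liver whose promoter is used to mark sinusoidal endothelium in mice. Its intensity was 657.7, 610.1, 653.5 and 527.5 in control replicates 1 to 4. With naproxen it was 845.9, 789.0, 828.6 and 822.7, and with NO-naproxen 679.6, 838.0, 831.5 and 666.7. All 4 naproxen arrays and all 4 NO-naproxen arrays lay above all 4 control arrays, and the drug groups overlapped each other. The naproxen arrays stood close together, with an SD of 23.8 against 60.4 in controls and 93.5 with NO-naproxen (n = 4). NO-naproxen replicates 1 and 4 lay just above the highest control, and replicates 2 and 3 among the naproxen values.

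For Oit3 the log2 fold change of naproxen against control was 0.42 ± 0.15 (SE), with a 95% interval from 0.10 to 0.74. The unadjusted limma p was 0.0142 and the adjusted p 0.381. With the array spread as a covariate the log2 fold change was 0.40, and without the 2 narrowest control arrays it was 0.37, with unadjusted limma p-values of 0.0255 and 0.0783.

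Clec4g encodes LSECtin, a C-type lectin of sinusoidal endothelium in liver and lymph node. Its intensity was 243.8, 96.0, 138.3 and 127.4 in control replicates 1 to 4. With naproxen it was 221.8, 214.1, 236.8 and 194.8, and with NO-naproxen 139.7, 186.7, 158.5 and 123.9. Control replicate 1 was the highest of all 12 arrays, so the naproxen and control groups overlapped, while the other 3 controls lay below every naproxen array. Every NO-naproxen array lay below every naproxen array.

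The log2 fold change of Clec4g with naproxen was 0.54 ± 0.22 (SE), with a 95% interval from 0.08 to 1.01, an unadjusted limma p of 0.0257 and an adjusted p of 0.381. Without control replicate 1 the log2 fold change was 0.78 and the unadjusted p 0.000953, but the adjusted p was 0.493, in a range of 0.26 to 1 over all alternatives. With the array spread as a covariate it was 0.56 (unadjusted p = 0.0383 in limma). Without the 2 narrowest control arrays it was 0.45 (unadjusted p = 0.14 in limma), and with limma's array weights 0.34 (unadjusted p = 0.129).

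Flt4 encodes VEGFR-3, the receptor of VEGF-C and VEGF-D, which is present on lymphatic and on sinusoidal endothelium. It measured 326.6, 360.8, 257.7 and 266.4 in control replicates 1 to 4. With naproxen it measured 484.0, 385.5, 413.7 and 331.5, and with NO-naproxen 392.7, 421.5, 335.0 and 346.9. Control replicates 3 and 4 lay below all other arrays, and control replicate 2 lay above naproxen replicate 4 and within the NO-naproxen range, so the groups overlapped.

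For Flt4 the log2 fold change with naproxen was 0.40 ± 0.17 (SE), with a 95% interval from 0.03 to 0.76, an unadjusted limma p of 0.0344 and an adjusted p of 0.388. Flt4 followed the array spread more closely than the other endothelial genes did. Over the 12 arrays its Pearson correlation with the spread was 0.898 (Spearman 0.937), a value reached by 2.36% of the 12048 probe sets above the background bound. With the spread as a covariate the log2 fold change was 0.18 (unadjusted p = 0.242 in limma), and without the 2 narrowest control arrays it was 0.21. After quantile normalization it was 0.32 (unadjusted p = 0.0483, adjusted p = 0.378 in limma).

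Wnt2 is a secreted ligand that sinusoidal endothelium near the central vein supplies to hepatocytes. Its intensity was 92.6, 96.2, 93.9 and 81.9 in control replicates 1 to 4. With naproxen it was 88.3, 68.3, 49.8 and 67.6, and with NO-naproxen 65.8, 122.7, 96.6 and 77.0. Naproxen replicates 2, 3 and 4 lay below all controls and replicate 1 lay among them. The naproxen mean of 6.38 on the log2 scale was below the background bound of 6.44, and the control mean of 6.74 above it.

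For Wnt2 the log2 fold change with naproxen was -0.36 ± 0.19 (SE), with a 95% interval from -0.77 to 0.04, an unadjusted limma p of 0.0777 and an adjusted p of 0.422. With the array spread as a covariate it was -0.45 (unadjusted p = 0.0409, adjusted p = 0.873 in limma, in a range of 0.305 to 1 over all alternatives), and without the 2 narrowest control arrays -0.41 (unadjusted p = 0.124). A constant of 64 in place of 16, which weighs dim signals less, and quantile normalization gave -0.23 and -0.21.

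Tek encodes TIE2, the angiopoietin receptor of endothelium, also found on some monocytes and macrophages. It measured 304.8, 224.2, 217.6 and 163.4 in control replicates 1 to 4. With naproxen it measured 335.9, 212.8, 220.5 and 225.9, and with NO-naproxen 341.3, 434.5, 280.2 and 193.3. Naproxen replicate 1 stood apart from the other 3 naproxen arrays, and all groups overlapped.

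The log2 fold change of Tek with naproxen was 0.13 ± 0.24 (SE), with a 95% interval from -0.38 to 0.64 and an adjusted limma p of 0.823. Without naproxen replicate 1 it was -0.02, and without control replicate 4 it was -0.01. With the spread as a covariate it was -0.14 and without the 2 narrowest control arrays -0.09, so no direction is given for this gene.

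**Figure D1:**
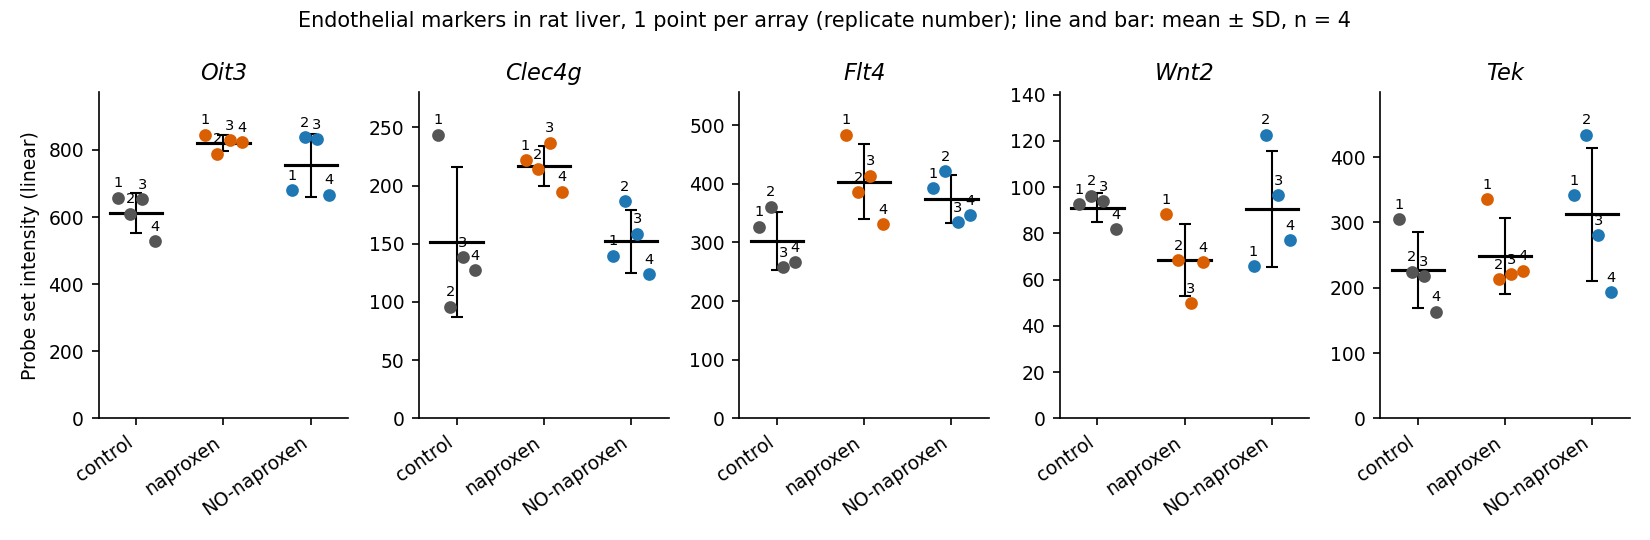
Linear probe set intensity of 5 endothelial genes, with 1 point per array numbered by replicate, for control, naproxen and NO-naproxen rats; lines and bars give the mean ± SD (n = 4), and every axis starts at 0. All naproxen and NO-naproxen arrays of Oit3 sit above the controls, whose highest value is 657.7, and the Clec4g value of control replicate 1, 243.8, is the highest of the 12 arrays.

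Of the 5 genes, 3 had an unadjusted p under 0.05 for naproxen against control, all 3 with the higher mean on naproxen. Over all probe sets 12.7% had such a p and 3.16% had it with the higher mean on naproxen. The genes were chosen with earlier results of these data known, so the shares are set beside the count without a test. The selection rule stated for the series, a change of at least 1.5-fold together with an unadjusted p under 0.05, was met by 0 of the 5 genes and by 5.85% of all probe sets. The groups were separate with naproxen higher for 1 of the 5, Oit3, and for 2.09% of all probe sets. The median log2 fold change over the 5 genes was 0.40, against -0.03 over all probe sets and 0.05 over those above the background bound. It was 0.18 with the array spread as a covariate and 0.21 without the 2 narrowest arrays, with 3 of the 5 genes above 0 in either case and medians of -0.03 and -0.04 over all probe sets. After quantile normalization and after median centring it was 0.32 and 0.51, with 4 of the 5 genes above 0 in either case. The medians over all probe sets were then 0.02 and 0.08. The count of 3 dropped to 0 without control replicate 4, where 5.79% of all probe sets had such a p. It was 0 without control replicates 3 and 4 together (2.39% of all probe sets) and 1 without naproxen replicate 3 (8.24%). It was 2 without control replicate 2 (24.4%), without control replicate 3 (6.43%) and with array weights (19.7%). With the array spread as a covariate the count was 3 again (5.63% of all probe sets), but these were Oit3, Clec4g and Wnt2.

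NO-naproxen against control, also named in the design, uses the same 4 control arrays, so its values are not independent of those above. By the same folds Tek was at 1.33 times control, Flt4 at 1.23 times and Oit3 at 1.22 times. Clec4g was at 1.05 and Wnt2 at 0.975 times control. None of the 5 genes and 0 of 19418 probe sets (0%) passed the adjusted limma test, with a smallest adjusted p of 0.468, while 2011 had an unadjusted p under 0.05.

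The log2 fold change of Tek with NO-naproxen was 0.41 ± 0.24 (SE), with a 95% interval from -0.10 to 0.92 and an adjusted limma p of 0.48. NO-naproxen replicate 2, which had the widest array spread at 2.62 log2 units, held the highest Tek value of the 12 arrays, and NO-naproxen replicate 4 lay below 3 of the 4 controls. The value was 0.11 with the spread as a covariate. It was 0.19 without the 2 narrowest controls and 0.55 without control replicate 1 (unadjusted p = 0.0464 in limma). Without NO-naproxen replicate 4 it was 0.605 (unadjusted p = 0.0202 in limma). Without NO-naproxen replicate 2 it was 0.236, and without control replicate 4 it was 0.27 (unadjusted p = 0.343 and 0.302 in limma). The unadjusted p was 0.05 or over in 10 of 12 fits that each left out 1 array. None of these values passed the adjusted threshold.

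For Oit3 the log2 fold change with NO-naproxen was 0.29 ± 0.15 (SE), with a 95% interval from -0.03 to 0.61 and an adjusted limma p of 0.468. It was 0.10 after quantile normalization, 0.26 with the spread as a covariate and 0.24 without the 2 narrowest arrays. Flt4 measured 0.30 ± 0.17 on the same scale, with an interval from -0.07 to 0.66. As with naproxen, its value was smaller with the spread as a covariate, at 0.06, and it was 0.11 without the 2 narrowest arrays.

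Clec4g and Wnt2 differed least between NO-naproxen and control. Their log2 fold changes were 0.06 ± 0.22 and -0.04 ± 0.19 (SE), with intervals from -0.41 to 0.53 and from -0.44 to 0.37. The direction of either gene turned under several settings. Clec4g measured 0.08 with the spread as a covariate, -0.03 without the 2 narrowest arrays, -0.15 with array weights and 0.30 without control replicate 1. Wnt2 measured -0.14 with the spread as a covariate, -0.08 without the 2 narrowest arrays, 0.03 after median centring and 0.06 after quantile normalization.

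Of the 5 genes, 0 had an unadjusted p under 0.05 for NO-naproxen against control, where 10.4% of all probe sets did and 5.49% did with the higher mean on NO-naproxen. The study's criterion was met by 0 of the 5 and by 3.8% of all probe sets. The groups were separate with NO-naproxen higher for 1 of the 5, Oit3, and for 2% of all probe sets. The median log2 fold change over the 5 genes was 0.29, against 0 over all probe sets and 0.10 over those above the background bound. It was 0.08 with the array spread as a covariate, 0.11 without the 2 narrowest arrays and 0.10 after quantile normalization, with medians of 0.04, 0.03 and 0.01 over all probe sets. Median centring gave 0.36, against 0.07 over all probe sets.

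**Figure D2:**
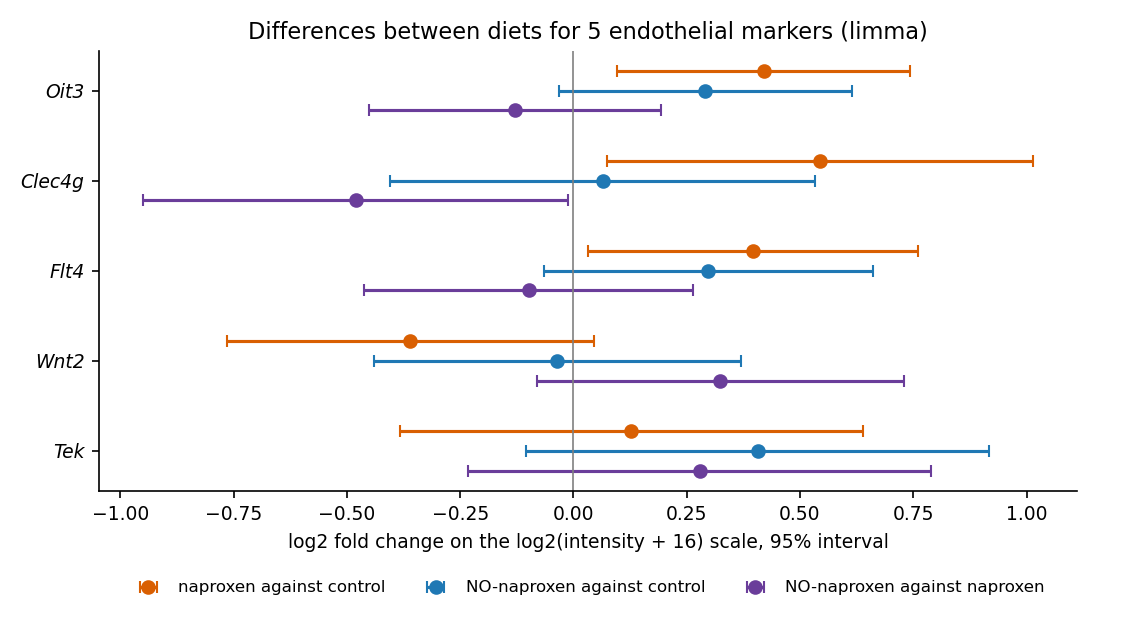
Log2 fold change of 5 endothelial genes on the log2(intensity + 16) scale for 3 comparisons of diets, with points for the limma estimate and bars for its 95% interval (4 arrays per diet). The intervals of Oit3, Clec4g and Flt4 for naproxen against control start at 0.10, 0.08 and 0.03, and that of Clec4g for NO-naproxen against naproxen ends at -0.01; all others include 0.

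NO-naproxen is set directly against naproxen here, although the doses differed, at 550 and 400 mg/kg of diet. NO-naproxen carries a nitrate ester group that naproxen lacks. Clec4g was the gene with the clearest difference: by the same fold it was at 0.717 times its value on naproxen. All 4 NO-naproxen arrays, at 123.9 to 186.7, lay below all 4 naproxen arrays, at 194.8 to 236.8. The log2 fold change was -0.48 ± 0.22 (SE), with a 95% interval from -0.95 to -0.01, an unadjusted limma p of 0.0455 and an adjusted p of 1. The value ranged from -0.57 to -0.38 over 23 alternative settings and did not pass the adjusted threshold in any of them. Its unadjusted p was above 0.05 in 8 of 12 fits that each left out 1 array, namely control replicate 3 or 4, naproxen replicate 1, 2 or 3, or NO-naproxen replicate 1, 3 or 4.

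The other 4 genes overlapped between the drug diets. Oit3 and Flt4 had log2 fold changes of -0.13 and -0.10, with 95% intervals from -0.45 to 0.19 and from -0.46 to 0.27. Wnt2 and Tek had 0.32 and 0.28, with intervals from -0.08 to 0.73 and from -0.23 to 0.79. These intervals still allow differences of the size seen against control.

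Of the 5 genes, 1 had an unadjusted p under 0.05 in this comparison, Clec4g, where 1.92% of all probe sets did and 0.644% did with the lower mean on NO-naproxen. The study's criterion was met by 0 of the 5 and by 0.572% of all probe sets. The arrays were separate with NO-naproxen lower for 1 of the 5 and for 0.525% of all probe sets. No probe set passed the adjusted limma test (0%), while 373 of 19418 had an unadjusted p under 0.05. The median log2 fold change over the 5 genes was -0.10, against 0.06 over all probe sets.

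The 5 genes did not vary as a unit over the 12 arrays. Among the 10 pairs, the Pearson correlation of log2 values was highest for Oit3 with Flt4, at 0.667, and for Oit3 with Clec4g, at 0.664. Flt4 with Tek had 0.601 and Oit3 with Tek 0.514. Wnt2 correlated at -0.249 with Clec4g, -0.128 with Flt4, -0.107 with Oit3 and 0.437 with Tek. These are descriptions over 12 arrays that share diets and array spread. With that spread the correlation was 0.638 for Tek, 0.509 for Oit3, 0.18 for Clec4g and 0.024 for Wnt2, and 26.6%, 35.4%, 51.5% and 57.6% of probe sets above the background bound had a value at least as high.

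**Figure D3:**
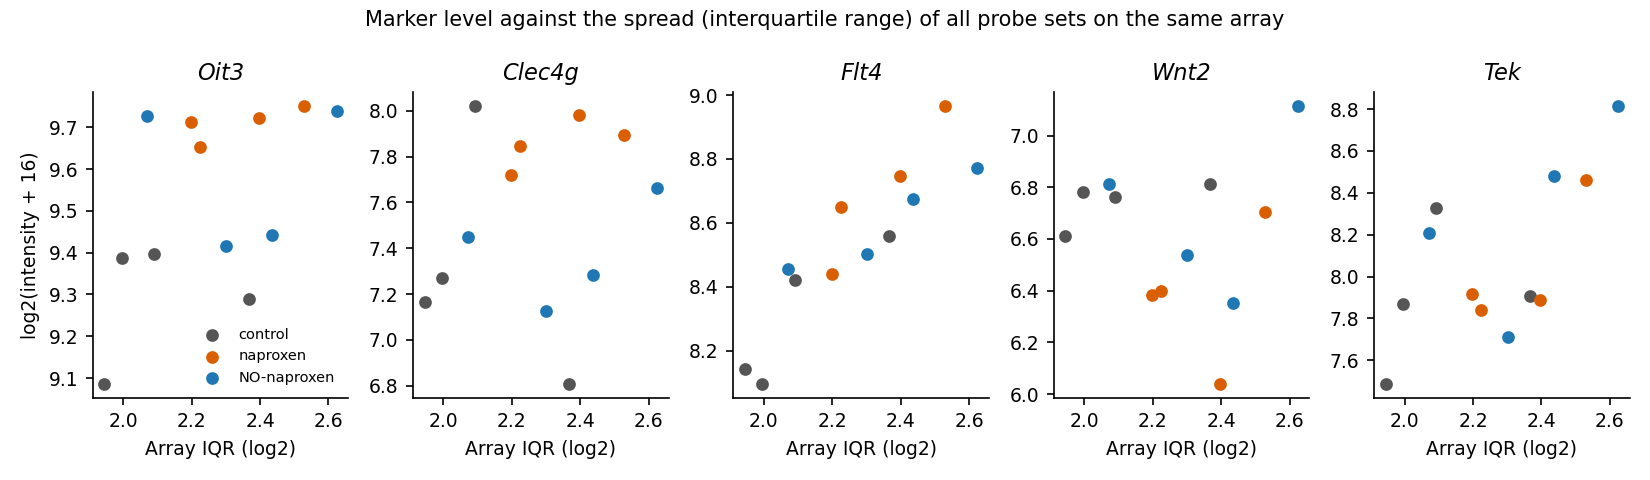
Log2(intensity + 16) of 5 endothelial genes against the interquartile range of all probe sets on the same array (log2 units), with 1 point per array coloured by diet. Flt4 follows the array spread (Pearson 0.898 over 12 arrays), whereas Clec4g and Wnt2 do not (0.18 and 0.024).

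The genes whose pattern over the 12 arrays was most like each endothelial gene were sought among 9828 named genes above the background bound. For Oit3 the highest Pearson correlations were with Gmcl1 (0.906), Nudt6 (0.889), Dynlt1 (0.882), Gsta6 (0.878) and Vcam1 (0.876), the last an adhesion molecule of endothelium. For Clec4g they were with Aurka (0.824), Btg1 (0.811), Ect2 (0.808), Cdkn1a (0.804) and Mki67 (0.803), of which Aurka, Ect2 and Mki67 are known from dividing cells. For Flt4 they were with Trim5 (0.965), Map7 (0.949), Zfp394 (0.941), Gaa (0.938) and Smc4 (0.933), and these 5 genes themselves correlated at 0.848 to 0.934 with the array spread. For Wnt2 they were with Pfkm (0.881), Ebna1bp2 (0.873), Cyp7a1 (0.851), Alkbh7 (0.851) and Per3 (0.831), where Cyp7a1 encodes the enzyme that starts bile acid synthesis and Per3 a clock gene. For Tek they were with Rbm10 (0.949), Dclre1b (0.942), Ccdc80 (0.935), Flt1 (0.934) and Rwdd2b (0.931), of which Flt1 is the VEGF receptor VEGFR-1 of endothelium. With the array spread, the genes for Tek correlated at 0.524 to 0.701 and those for Oit3 at 0.341 to 0.613. For Clec4g the range was 0.148 to 0.54 and for Wnt2 -0.296 to 0.301. All these genes were picked as the highest of 9828 over 12 arrays, and shared regulation was not tested.

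Other genes of sinusoidal endothelium were measured for 18 of 21 listed. None passed the adjusted limma test in any comparison, which also held for each of the other lists below. Some genes stand in more than 1 list. For reference, 45.9% of all probe sets were above 0 for naproxen against control and 50.1% for NO-naproxen against control. Among probe sets above the background bound these shares were 56.7% and 61.3%. They belong to the fit as reported and are not given for the other settings. The lists were chosen with earlier results of these data known. An unadjusted p under 0.05 with the higher mean on the drug was found for 3.16% and 5.49% of all probe sets. For naproxen against control 16 of 18 had a log2 fold change above 0, with a median of 0.19, and 0 had an unadjusted p under 0.05. For NO-naproxen against control 16 of 18 were above 0, with a median of 0.27, and 3 had an unadjusted p under 0.05, all higher. The genes named in this and the next lists were picked as the 2 with the smallest p per comparison with control. Groups did not overlap, with the drug higher, for 2.09% of all probe sets with naproxen and 2% with NO-naproxen. The C-type lectin Clec1b ranged from 79.6 to 118.6 in controls and from 120.7 to 151.2 with naproxen, with no overlap and a log2 fold change of 0.45 ± 0.22 (SE). Cd4, which sinusoidal endothelium shares with T cells and macrophages, measured 0.46 ± 0.23. With NO-naproxen the receptor Kit measured 0.57 ± 0.25 and the trafficking protein Ehd3 0.46 ± 0.20. Without the 2 narrowest controls Clec1b measured 0.41, Cd4 0.125, Kit 0.20 and Ehd3 0.14, and with the array spread as a covariate 0.35, 0.22, 0.22 and 0.20. Once the array spread was a covariate 6 of 18 were above 0 for naproxen and 10 of 18 for NO-naproxen, with medians of -0.04 and 0.05. Without the 2 narrowest controls these were 11 and 12 of 18, with medians of 0.015 and 0.08. After quantile normalization, which gives all arrays the same distribution, they were 16 and 15 of 18, with medians of 0.21 and 0.17. In these 3 settings the medians over all probe sets were -0.031, -0.035 and 0.024 with naproxen. With NO-naproxen they were 0.036, 0.026 and 0.01. The naproxen median of the list turned with the array spread as a covariate, so no direction is given for it.

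Of 32 listed genes of vascular endothelium 29 were measured. Log2 fold changes were above 0 for 22 of 29 with naproxen, with a median of 0.16, and for 21 of 29 with NO-naproxen, with a median of 0.11. At an unadjusted p under 0.05 there were 3 with naproxen and 1 with NO-naproxen, all higher. The adhesion molecule Vcam1 was separate between naproxen, at 231.0 to 267.4, and control, at 143.5 to 205.4, with a log2 fold change of 0.49 ± 0.20 (SE). The multimerin Mmrn1, within the background range, measured 0.49 ± 0.20. With NO-naproxen Calcrl, a receptor of adrenomedullin, measured 0.55 ± 0.19 and the transcription factor Ets1 0.40 ± 0.19. With the array spread as a covariate the medians were 0.04 with naproxen and 0.02 with NO-naproxen, and without the 2 narrowest controls 0.01 and 0.06. Vcam1 measured 0.38 and 0.43 in these 2 settings and Mmrn1 0.39 and 0.56, while Calcrl measured 0.26 and 0.29 and Ets1 0.09 and 0.15. After quantile normalization 23 of 29 genes were above 0 with naproxen and 20 of 29 with NO-naproxen, with medians of 0.27 and 0.20.

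Ligands and receptors of the VEGF and angiopoietin systems, the partners of Flt4 and Tek, were measured for 17 of 18 listed. The median log2 fold change was 0.11 with naproxen and 0.22 with NO-naproxen, with 11 and 12 of 17 above 0. Of the ligands, placental growth factor Pgf, which binds Flt1, measured -0.51 ± 0.22 with naproxen (SE, unadjusted p = 0.0338, adjusted p = 0.388 in limma). Vegfd, a ligand of Flt4, was at 65.1 to 86.2 with naproxen and at 93.5 to 107.3 in controls, without overlap, with a log2 fold change of -0.33 ± 0.17. The share of all probe sets without overlap and lower with naproxen is not given here. Of the receptors, Flt1 measured 0.46 ± 0.20 with NO-naproxen, and the Notch ligand Dll4 measured 0.39 ± 0.18, with NO-naproxen at 75.3 to 131.8 and controls at 59.1 to 74.2. At an unadjusted p under 0.05 stood 1 gene, lower, with naproxen and 2, higher, with NO-naproxen. In a fit with the array spread as a covariate 4 of 17 were above 0 with naproxen and 9 of 17 with NO-naproxen, with medians of -0.09 and 0.001. Without the 2 narrowest controls these were 7 and 12 of 17, with medians of -0.04 and 0.11. In the same 2 settings Pgf measured -0.17 and -0.26, Vegfd -0.32 and -0.31, Flt1 0.24 and 0.27, and Dll4 0.20 and 0.39. Quantile normalization left 12 of 17 genes above 0 with naproxen and 11 of 17 with NO-naproxen, with medians of 0.07 and 0.10. The naproxen median thus turned between settings, and no direction is given for it.

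Beside Wnt2, 14 of 22 listed Wnt ligands, receptors, pericentral target genes of hepatocytes and junction partners were measured. Their median log2 fold change was -0.004 with naproxen and 0.03 with NO-naproxen, with 5 and 10 of 14 above 0. After median centring, which shifted the median of all probe sets for naproxen against control from -0.03 to 0.08, 13 of 14 were above 0 with naproxen, against 5 of 14 after quantile normalization, so no direction is given for this list. The secreted Wnt inhibitor Notum, itself a Wnt target, was at 299.4 to 366.6 in controls and 388.6 to 407.9 with naproxen, without overlap, and its log2 fold change was 0.23 ± 0.18 (SE). E-cadherin, Cdh1, the junction protein that binds beta-catenin, measured 0.34 ± 0.16 with naproxen. With NO-naproxen it measured 0.62 ± 0.16, at 997.9 to 1249 against 602.5 to 843.2 in controls, without overlap (unadjusted p = 0.00155, adjusted p = 0.468 in limma). That value was 0.49 with the array spread as a covariate and 0.55 without the 2 narrowest controls, and the naproxen value was 0.225 and 0.28. The list's median in these 2 settings was 0.06 and 0.10 with naproxen and 0.05 and 0.08 with NO-naproxen.

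Hyaluronan is cleared from the blood by sinusoidal endothelium, and 7 of 8 listed genes of its handling were measured. Hmmr, a hyaluronan-binding protein of the mitotic spindle, lay within the background range at 11.2 to 31.0 in controls and 34.3 to 63.9 with naproxen, with a log2 fold change of 0.86 ± 0.21 (SE, unadjusted p = 0.000752, adjusted p = 0.381 in limma). The hyaluronan receptor Cd44 measured 0.55 ± 0.24 with naproxen. The median over the list was 0.015 with naproxen and -0.10 with NO-naproxen, and 3 of the 7 genes lay within the background range. Of 6 lymphatic genes 4 were measured, with medians of 0.02 and -0.11. Podoplanin, Pdpn, within the background range, measured -0.63 ± 0.25 with naproxen, and Reln, which stellate cells also express, measured 0.25 ± 0.24. None of these passed the adjusted test. When the array spread was a covariate Hmmr measured 0.80, Cd44 0.25, Pdpn -0.26 and Reln -0.13, and without the 2 narrowest controls 0.69, 0.29, -0.32 and -0.03. The hyaluronan median was then -0.01 and -0.02 with naproxen and -0.02 and -0.04 with NO-naproxen, and the lymphatic median -0.16 and -0.08 with naproxen and -0.03 and -0.10 with NO-naproxen.

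**Figure D4:**
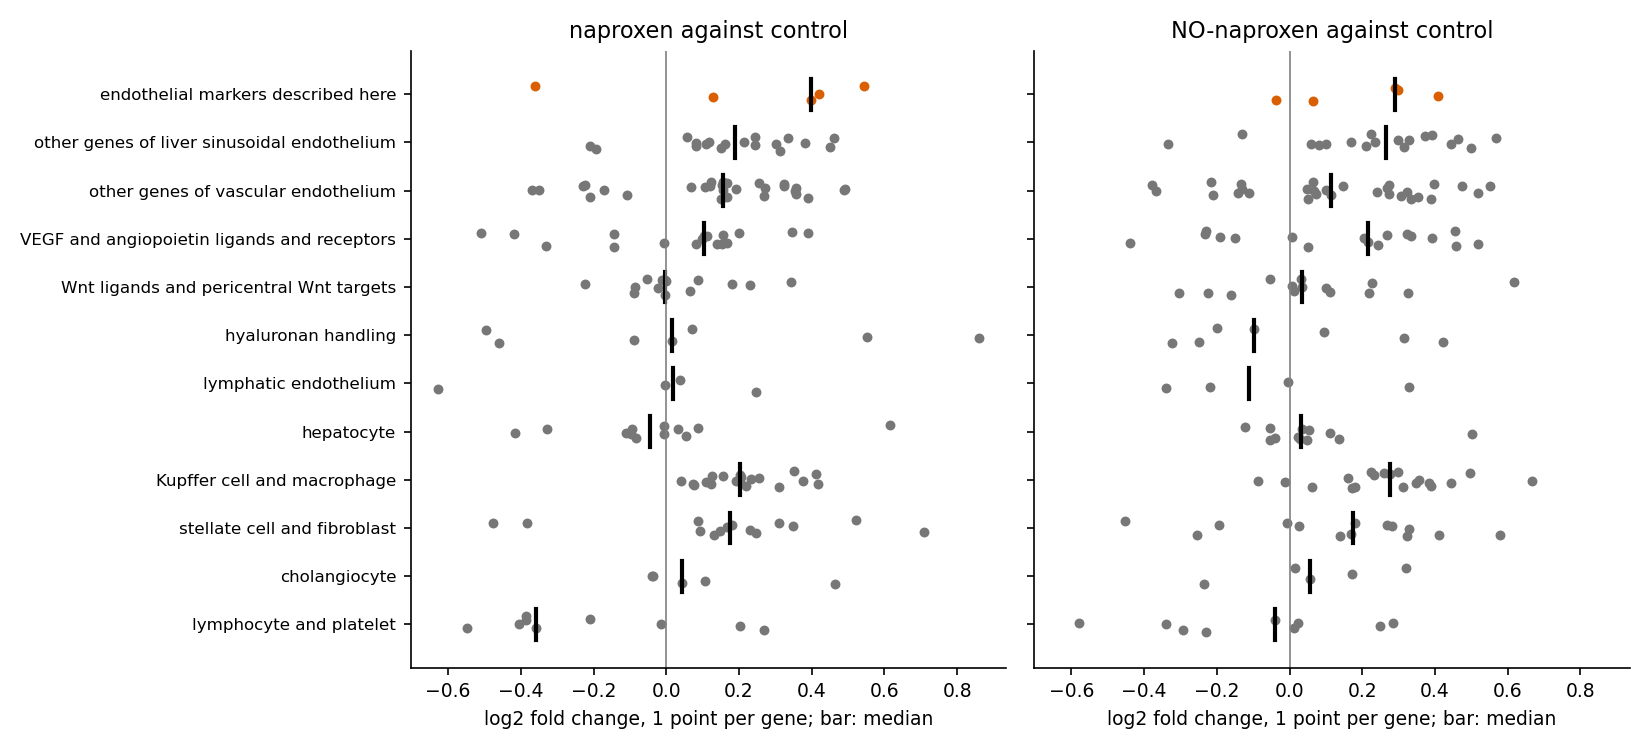
Log2 fold change against control, on the log2(intensity + 16) scale, of the 5 endothelial genes (top) and of the genes of other lists, with 1 point per gene and a bar for the median, for naproxen (left) and NO-naproxen (right). Medians are 0.40 and 0.29 for the endothelial genes, 0.19 and 0.27 for other sinusoidal genes and 0.20 and 0.28 for Kupffer cell and macrophage markers.

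Markers of other liver cells were set beside these values, since several of the endothelial genes are shared with other cells. Kupffer cell and macrophage markers were measured for 19 of 20 listed, and 19 of 19 had a log2 fold change above 0 with naproxen and 17 of 19 with NO-naproxen, with medians of 0.20 and 0.28. In the fit with the array spread as a covariate 16 and 18 of 19 were above 0, with medians of 0.15 and 0.21, and without the 2 narrowest controls 11 and 15 of 19, with medians of 0.03 and 0.13. After quantile normalization 17 of 19 of these markers were above 0 in either comparison, with medians of 0.20 and 0.195. Their summed intensity was 8206 to 12057 in controls, 9399 to 12501 with naproxen and 10624 to 14728 with NO-naproxen. Stellate cell and fibroblast markers, 14 of 17 measured, had medians of 0.18 in both comparisons against control, with summed intensities of 4581 to 6513, 5682 to 6656 and 5629 to 7268. Those medians were -0.03 and 0.002 with the array spread as a covariate and -0.03 and 0.06 without the 2 narrowest controls. Quantile normalization gave stellate medians of 0.11 and 0.07. The corresponding sums for the 18 sinusoidal genes were 5621 to 7392, 7039 to 8230 and 6807 to 9725.

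Hepatocyte markers, 12 of 14 measured, summed to 81212 to 95162 in controls, 81944 to 89555 with naproxen and 84752 to 98139 with NO-naproxen, with medians of -0.05 and 0.03, or -0.05 and 0.01 with the array spread as a covariate and -0.06 and -0.002 without the 2 narrowest controls. The 5 measured of 8 cholangiocyte markers had medians of 0.04 and 0.05, and the 9 measured of 13 lymphocyte and platelet markers -0.36 and -0.04. Fitted with the array spread these medians were 0.13 and 0.10 for cholangiocytes and -0.13 and 0.11 for lymphocytes and platelets, and without the 2 narrowest controls 0.06 and 0.17, and -0.18 and -0.06. Only 1 of 6 erythrocyte genes was measured, at 0.02 and 0.06, or -0.21 and -0.20 with the array spread as a covariate and -0.02 and 0.02 without the 2 narrowest controls. No marker of any of these lists was listed at 0 on any array. The part that other cell types or the array spread have in the endothelial values was not tested. Only values with the spread as a covariate, without the 2 narrowest controls and after other scalings are given.

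**Figure D5:**
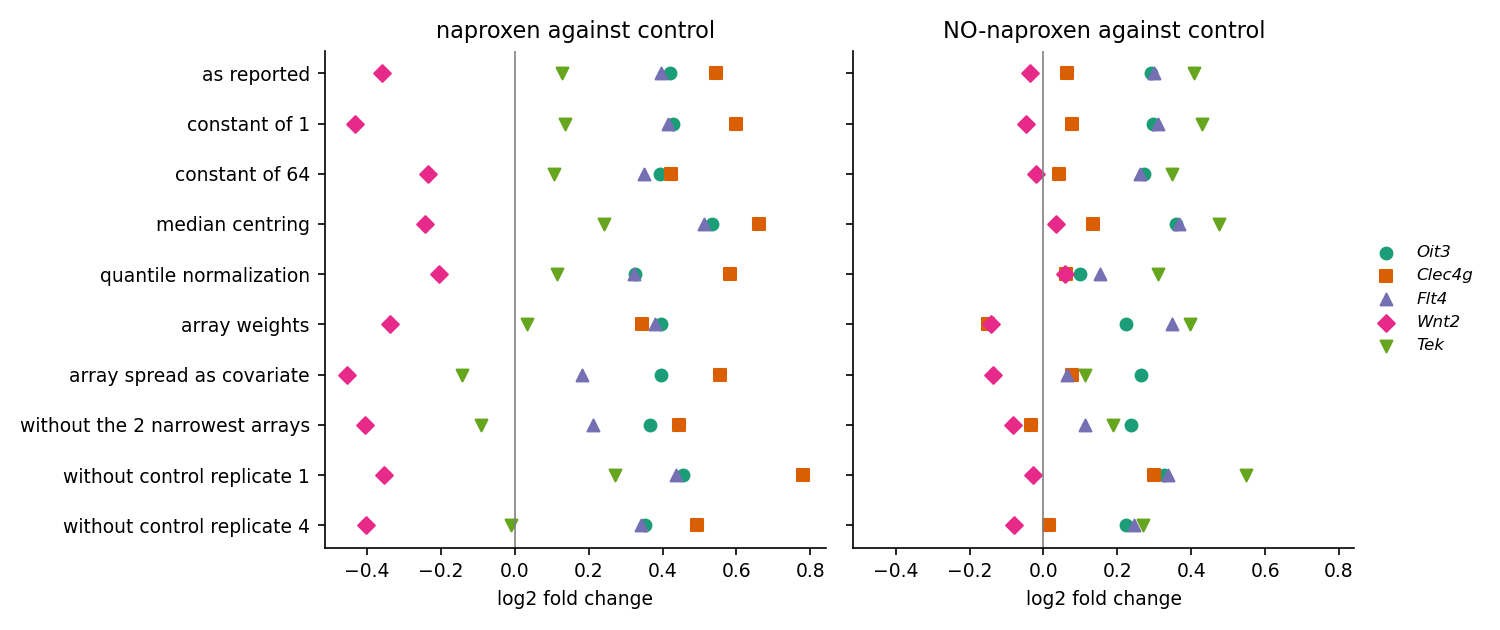
Log2 fold change of 5 endothelial genes against control under 10 ways of processing, for naproxen (left) and NO-naproxen (right); each symbol is 1 gene. Oit3 stays between 0.33 and 0.53 for naproxen in the settings drawn, while Flt4 moves from 0.40 to 0.18 and Tek from 0.13 to -0.14 with the array spread as a covariate.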

How the data were processed

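The deposited values are linear probe set intensities of 12 arrays, made by the authors with Affymetrix Expression Console 1.1.1 on build rn4, per the submitters' processing notes. RNA was DNase-treated, depleted of ribosomal RNA and biotin-labelled, per the labels' protocols. No source used here gives the summary method or the normalization, and the columns do not share one distribution. Between 5.87% and 11.1% of values per array were under 16, so adding 16 before log2 understates the change of dim probe sets.

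Of 19418 probe sets, 13327 had 1 symbol in the platform annotation, 620 had several and 5471 had none. All 12 arrays entered 1 fit of limma 3.58.1 in R 4.3.3 (lmFit, eBayes, 2-sided) with diet as the group, and p-values were adjusted over all probe sets (Benjamini-Hochberg, threshold 0.05). The precision is limited by 4 arrays per diet, and over all probe sets the standard error had a median of 0.21 log2 units. The fit was tested on simulated data. Alternatives, among them other constants, scalings and filters, array spread as a covariate, array weights, a replicate block and leaving out each array, are described with their effects at the end.

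The genes and lists were chosen with earlier results of these data known. In lists, the 2 genes with the smallest p per comparison with control were named. The rule for patterns over arrays named Stab2 and Pecam1, which were not measured, so the 5 measured genes were used, chosen after their values were seen. The plots come from matplotlib 3.10.9 (Python 3.11.15).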

Additional observations from a re-analysis of the deposited data

Results flagged for a closer look

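Tek in naproxen replicate 1 measured 8.46 on the log2(intensity + 16) scale, against 7.92 in the next highest of the 4 naproxen arrays, and the gap was 0.871 of the group's range, above Dixon's 95% critical value for 4 samples. This was 1 of 18 sets of 4 arrays examined (5 genes and the array spread in 3 diets), and chance marks about 1 set in 20. Naproxen replicate 1 also had the widest array spread of its group, at 2.53 log2 units, and the part of that spread in the value was not tested. Without it, the log2 fold change of Tek for naproxen against control was -0.02 in place of 0.13.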

How the results depend on the processing

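Each value was recomputed under 23 alternatives, of which 12 leave out 1 array each. Of 15 differences of endothelial genes, 12 kept their direction in all 23, none passed the adjusted threshold in any, and Clec4g and Wnt2 for NO-naproxen and Tek for naproxen, each against control, did not keep it. Tek measured -0.142 with the array spread as a covariate, -0.092 without the 2 narrowest arrays and -0.017 to 0.271 leaving out single arrays. Clec4g measured -0.15 with array weights, -0.034 without the 2 narrowest arrays and -0.105 to 0.30 leaving out single arrays. Wnt2 measured 0.059 after quantile normalization, 0.033 after median centring and -0.173 to 0.081 leaving out single arrays. Among 24 values of other named genes, 20 kept their direction in all alternatives run. With the spread as a covariate Reln measured -0.131 with naproxen and -0.083 with NO-naproxen, Cd44 -0.016 and Pdpn 0.061 with NO-naproxen, and without the 2 narrowest arrays Reln measured -0.029 with naproxen. The cause of these turns was not tested.

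Probe sets past the adjusted threshold, 0 as reported, numbered 2 with array weights for NO-naproxen against control. Leaving out single arrays gave 0 to 3 for naproxen (3 without control replicate 1, 2 without control replicate 2) and 0 to 4 for NO-naproxen (4 without control replicate 2) against control. Endothelial genes with an unadjusted p under 0.05 numbered 0 in place of 3 for naproxen without the 2 narrowest arrays. They numbered 2 with array weights and 0 to 3 leaving out single arrays. The share of all probe sets was 2.39% without the 2 narrowest arrays and 19.7% with array weights, against 12.7% as reported. For NO-naproxen against control these genes numbered 1 in place of 0 with a constant of 64 (11.4% of all probe sets), median centring (12.6%) or array weights (30.6%). Single arrays left out gave 0 to 1, with 1 without control replicate 1 (8.94%) or NO-naproxen replicate 4 (10.5%). For NO-naproxen against naproxen they numbered 0 in place of 1 with a constant of 1 (2.3%) or the replicate block (1.92%). They also numbered 0 without the 2 narrowest arrays (1.84%), and 0 to 1 leaving out single arrays. Same-numbered arrays of different diets had deviations correlated between -0.38 and 0.48, with 4 of 12 pairs over 0.1, so the numbers were not taken as pairs. The replicate block gave 0 adjusted calls in all 3 comparisons. Each endothelial gene had 1 probe set, so an average over probe sets was not run.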
